A study of Mus musculus with 10 samples.

Results

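Heat shock and chaperone genes encode proteins that help others to fold, keep them from clumping and hand damaged ones on for breakdown. A list of 10 such genes was followed here in mouse skeletal muscle: Hspa1a, Hspa1b, Hspa8, Hsph1, Dnajb1, Hsp90aa1, Hsp90ab1, Hspb1, Cryab and Hspd1. Members were the probe sets (groups of short DNA probes on the array) annotated to 1 of these symbols and no other. They came to 23 of 45101 probe sets on the array and covered 9 of the 10 genes, since no probe set carried the name Hsp90ab1 alone, and that gene is not analysed here. On 18 of the 23 the log2 intensity averaged at least 4 across the arrays, and these were tested.

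Gastrocnemius RNA (the gastrocnemius is in the calf) was taken from 10 C57BL/6 males at 7.5 months and put on 1 array per mouse. In 5 mice (Floxed_Mstn, labelled as the knockout) the myostatin genes were floxed, which means flanked by sites that Cre recombinase cuts out. The other 5 (WT_Mstn) had normal myostatin genes. Both groups carried the CAGG-CreER transgene, a tamoxifen-activated Cre, and both were given 8 tamoxifen injections from 4 months of age. The CAGG promoter is active in most tissues, so the Cre was not restricted to muscle fibres. Myostatin, a hormone-like factor released by muscle, holds back its growth, and the comparison asks how mature muscle differs once it is deleted. No probe set carried the name Mstn, so deletion could not be checked on these arrays.

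Chaperones of the Hsp70 family bind unfolded stretches of protein in a cycle driven by ATP, helped by J-domain proteins that deliver the client and by Hsp110 proteins that swap the spent nucleotide. Hsp90 acts later, on kinases, receptors and, in muscle, on myosin. Small heat shock proteins hold damaged proteins without using ATP and lie along the Z-disc and desmin network of muscle fibres. When proteins unfold, heat shock factor 1 (Hsf1) binds repeats of the unit GAA and its reverse complement, TTC, in the promoters of the inducible genes. Within muscle, contraction, heat and handling are known to induce them.

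Promoters of 4 of the 5 members with a match to that repeat are shown, 2 of them almost the same sequence. Each is the 250 bases before the annotated start in RefSeq (GRCm38.p6), 5′ to 3′ on the strand of the gene, with the matched motif in capitals. Hspa1a lies at chr17:34972157-34972406 (minus strand), Hspa1b at chr17:34959239-34959488 (minus strand), Hspb1 at chr5:135887669-135887918 (plus strand) and Hspd1 at chr1:55087933-55088182 (minus strand).
Hspa1a: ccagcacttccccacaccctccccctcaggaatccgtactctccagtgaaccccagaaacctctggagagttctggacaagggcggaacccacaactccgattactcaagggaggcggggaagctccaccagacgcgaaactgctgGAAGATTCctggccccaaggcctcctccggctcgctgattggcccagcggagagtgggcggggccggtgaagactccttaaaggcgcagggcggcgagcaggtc
Hspa1b: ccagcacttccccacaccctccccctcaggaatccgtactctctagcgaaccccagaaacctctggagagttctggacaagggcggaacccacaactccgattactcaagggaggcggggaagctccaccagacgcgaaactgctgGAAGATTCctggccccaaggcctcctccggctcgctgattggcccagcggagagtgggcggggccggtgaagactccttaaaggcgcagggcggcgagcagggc
Hspb1: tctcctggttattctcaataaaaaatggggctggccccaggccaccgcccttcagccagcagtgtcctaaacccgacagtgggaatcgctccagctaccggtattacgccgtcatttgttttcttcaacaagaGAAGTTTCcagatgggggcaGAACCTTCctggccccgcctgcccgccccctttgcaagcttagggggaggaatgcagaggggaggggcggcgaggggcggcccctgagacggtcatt
Hspd1: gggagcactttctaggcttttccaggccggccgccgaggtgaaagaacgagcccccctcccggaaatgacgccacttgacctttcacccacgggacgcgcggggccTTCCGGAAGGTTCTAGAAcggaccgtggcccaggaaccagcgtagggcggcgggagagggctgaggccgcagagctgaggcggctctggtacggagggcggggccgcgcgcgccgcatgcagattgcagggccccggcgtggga

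The 2 Hspa1 promoters were identical at 247 of 250 bases (98.8%) and differed by C44T, T47C and T249G, counted from 1 at the 5′ end, with the Hspa1a base first and the Hspa1b base last. Motifs searched were GAANNTTC and TTCNNGAA, each of 2 units and each its own reverse complement, and the 3-unit forms GAANNTTCNNGAA and TTCNNGAANNTTC, which are reverse complements of each other and contain the 2-unit forms. Over all 32851 RefSeq promoter windows of 300 bases (250 before and 50 after the start), 15.1% held a 2-unit motif and 0.603% a 3-unit one. A 2-unit match stood at the same place in Hspa1a and Hspa1b, from -104 to -97 relative to the start (GAAGATTC), and Hspb1 held 2 of them (GAAGTTTC and GAACCTTC). Hspd1 held both 3-unit forms, overlapping, from -144 to -127, in 1 of its 2 annotated windows. That stretch also lies in the promoter window of Hspe1, the neighbouring gene read in the opposite direction, since 285 bases of the windows are shared. Hsph1 held a 2-unit match before its start (TTCTCGAA) and a 3-unit match just after it (TTCTGGAAAGTTC), in each of its 2 windows. No match was found in the 2 windows of Dnajb1. Windows of 6 of the 10 genes were searched, and Hspa8, Hsp90aa1, Hsp90ab1 and Cryab were not searched here. A match is a run of letters, not a measured binding site.

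The muscle identity of the samples was clear from the arrays. All 12 genes of a muscle fibre list, among them Acta1, Ckm and Myh4, were measured, with a median level of 15.01 (log2 intensity), and the probe sets of Alb, Gfap, Ins2, Umod, Sftpc and Myh6 averaged under 4. Across the whole table, 21 of 21154 probe sets passed an adjusted p of 0.05 in limma (0.0993%), 11 higher (0.052%) and 10 lower (0.0473%) in Floxed_Mstn muscle. That count was 1 to 17 when each array was left out in turn. Between arrays, the bacterial hybridisation controls (RNA added to each array, 7 probe sets) varied from 12.84 to 13.46 in Floxed_Mstn arrays and from 12.97 to 13.34 in WT_Mstn arrays. They were highest on Floxed_Mstn 1, Floxed_Mstn 3 and WT_Mstn 3. Bulk muscle RNA mixes cell types, so fewer cells of a type and less RNA per cell cannot be told apart.

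No heat shock or chaperone gene of the list showed a difference between Floxed_Mstn and WT_Mstn muscle that exceeded the spread between mice. Of the 18 member probe sets tested, 0 passed in limma, against 0.0993% of all probe sets, and 0 had an unadjusted p under 0.05, against 7.69% of all. In 0 of the 18 did the groups fail to overlap, against 2.06% of all. Among the members the lowest adjusted p was 0.825, for a Cryab probe set. On the brightest probe set of each gene, 7 values were lower and 2 higher in Floxed_Mstn muscle, with a median difference of -0.06 (log2), beside -0.00287 over all probe sets tested. Values of Hspa1a, Hspa1b and Dnajb1 differed widely between mice of the same group.

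**Figure D1:**
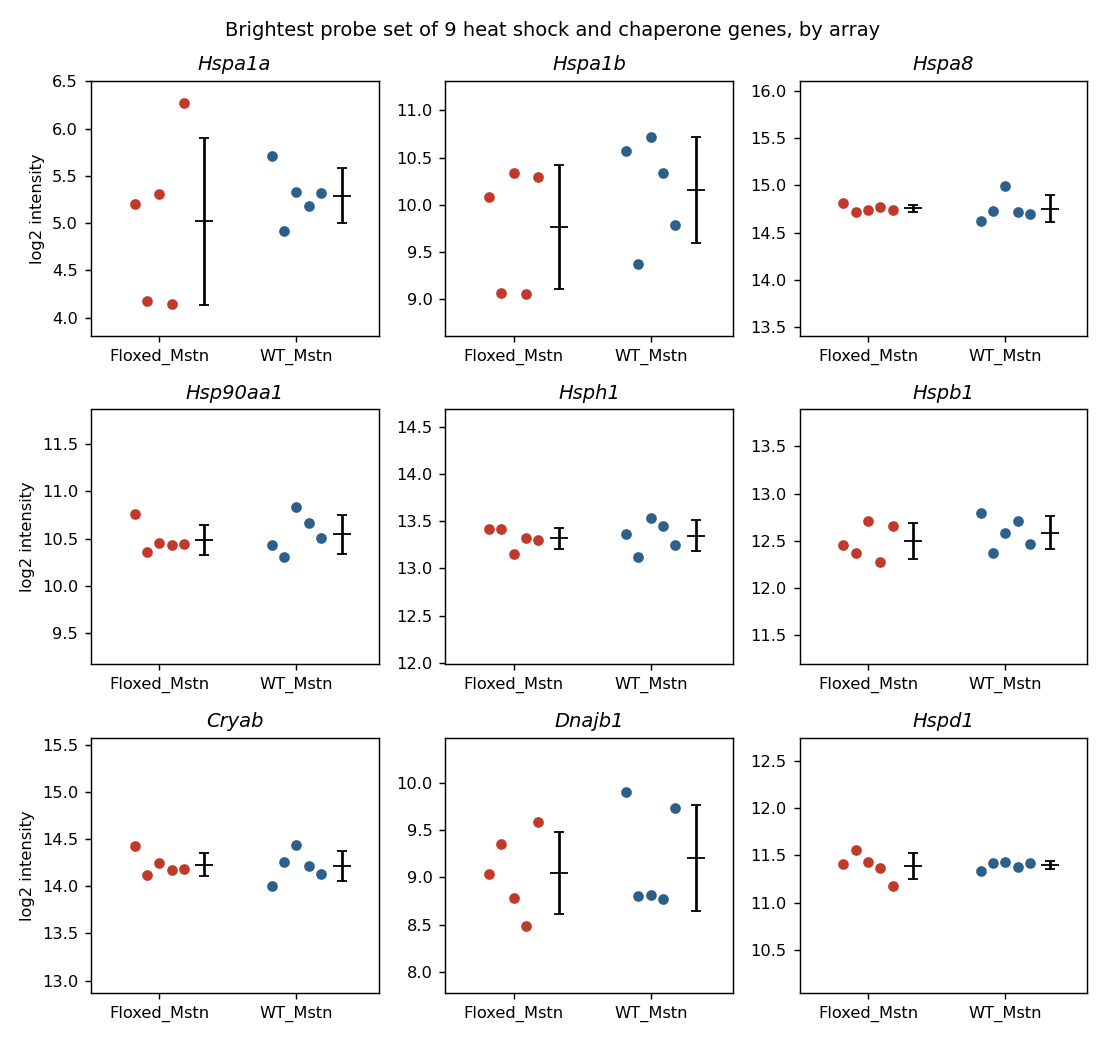
Log2 intensity of the brightest probe set of each of 9 genes, by array (points), with the mean and SD of each group beside them (horizontal mark and bar, n = 5 each). All panels span the same log2 range, and the points of Hspa1b and Dnajb1 spread widely in both groups and those of Hspa1a in Floxed_Mstn, while those of Hspa8 and Hspd1 lie close together.

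Hspa1a and Hspa1b encode the stress-inducible Hsp70 and lie close together as near-identical copies. Hspa1a was read by 1 dim probe set, with log2 intensities of 5.20, 4.17, 5.31, 4.14 and 6.27 in Floxed_Mstn mice 1 to 5, against 5.72, 4.92, 5.33, 5.18 and 5.32 in WT_Mstn mice 1 to 5. Floxed_Mstn muscle held both the lowest mice (2 and 4) and the highest (5), so WT_Mstn values lay inside the range of the knockouts. The group means were 5.02 ± 0.89 in Floxed_Mstn and 5.29 ± 0.29 in WT_Mstn muscle (SD, n = 5 each), a difference of -0.27 ± 0.38 (SE, 95% interval -1.12 to 0.57, adjusted p = 0.961 in limma). Between the lowest and highest mouse the deposited intensity ran from 17.7 to 77.0, which is 4.36-fold.

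For Hspa1b the brightest probe set gave 10.08, 9.06, 10.33, 9.05 and 10.29 in Floxed_Mstn mice 1 to 5, against 10.57, 9.38, 10.72, 10.34 and 9.78 in WT_Mstn mice 1 to 5. Floxed_Mstn mice 2 and 4 were again the lowest, WT_Mstn 2 came next, and the groups overlapped. Means were 9.76 ± 0.65 in Floxed_Mstn and 10.16 ± 0.56 in WT_Mstn muscle (SD, n = 5 each), a difference of -0.39 ± 0.35 (SE, 95% interval -1.18 to 0.39, adjusted p = 0.900). As folds, that interval runs from 0.443 to 1.31. The Hspa1a difference rested on few mice: without Floxed_Mstn 4 it was -0.06, without Floxed_Mstn 2 also -0.06, without WT_Mstn 1 it was -0.17, and without Floxed_Mstn 5 it was -0.59. For Hspb1 and Hspa1b no single array turned the sign, but Hspb1 ranged from -0.145 without Floxed_Mstn 3 to -0.0344 without Floxed_Mstn 4, and was -0.0376 without WT_Mstn 1. Hspa1b ranged from -0.59 without WT_Mstn 2 to -0.21 without Floxed_Mstn 4, and was -0.22 without Floxed_Mstn 2 and -0.25 without WT_Mstn 3. The other 2 Hspa1b probe sets averaged under 4 and were not tested, with differences of -0.17 and -0.31. Probes to either copy may bind transcripts of both, so Hspa1a and Hspa1b values are uncertain as to the copy.

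Hspa8 encodes the constitutive Hsp70 of the cytosol, which takes part in routine folding, clathrin uncoating and chaperone-mediated autophagy. Its brightest probe set gave 14.82, 14.72, 14.74, 14.77 and 14.74 in Floxed_Mstn mice 1 to 5, against 14.63, 14.73, 14.99, 14.72 and 14.70 in WT_Mstn mice 1 to 5. WT_Mstn 3 stood above all other mice, and the groups overlapped. The difference was 0.00292 ± 0.078 (SE, 95% interval -0.17 to 0.18, or 0.889-fold to 1.13-fold, adjusted p = 0.999). This probe set lies near the top of the scale, whose highest log2 intensity on any array was 16.07. A dimmer Hspa8 probe set with a mean of 7.72 had a difference of 0.26 (95% interval -0.23 to 0.76), and the other bright ones had -0.08 and -0.07.

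Dnajb1, the inducible J-domain partner of Hsp70, was the most uneven of the bright members after Hspa1b. Its values were 9.04, 9.35, 8.78, 8.48 and 9.58 in Floxed_Mstn mice 1 to 5, against 9.90, 8.81, 8.81, 8.77 and 9.74 in WT_Mstn mice 1 to 5. In WT_Mstn muscle, mice 1 and 5 lay far above the other 3, which were close together. The difference was -0.16 ± 0.29 (SE, 95% interval -0.81 to 0.49, adjusted p = 0.976), and the dimmer Dnajb1 probe set had the opposite sign (0.16, 95% interval -0.40 to 0.72). Hsph1, the Hsp110 exchange factor, had 13.32 ± 0.11 in Floxed_Mstn and 13.34 ± 0.16 in WT_Mstn muscle on its bright probe set (SD, n = 5 each), a difference of -0.02 (95% interval -0.23 to 0.19). Its second probe set had 0.14 (95% interval -0.32 to 0.60), with Floxed_Mstn 3 (8.15) and WT_Mstn 2 (8.24) below all others.

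Hsp90aa1 encodes the inducible cytosolic Hsp90. Its brightest probe set gave 10.76, 10.35, 10.45, 10.43 and 10.44 in Floxed_Mstn mice 1 to 5, against 10.43, 10.30, 10.83, 10.67 and 10.51 in WT_Mstn mice 1 to 5. Floxed_Mstn 1 and WT_Mstn 3 were the highest of their groups, and both were among the 3 arrays with the highest hybridisation controls. The difference was -0.06 ± 0.12 (SE, 95% interval -0.32 to 0.20, adjusted p = 0.979). It was -0.08 with those controls as a covariate and -0.07 without the 3 arrays. The other Hsp90aa1 probe sets tested had -0.16 and -0.00315, and 2 more lay at the floor of the scale on every array (2.25 to 2.33).

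Among small heat shock proteins, Hspb1 (Hsp27) protects actin filaments and Cryab (alpha B-crystallin) protects desmin. Hspb1 had 12.46, 12.37, 12.71, 12.27 and 12.66 in Floxed_Mstn mice 1 to 5, against 12.80, 12.37, 12.58, 12.71 and 12.47 in WT_Mstn mice 1 to 5. The groups overlapped almost fully, with a difference of -0.09 ± 0.11 (SE, 95% interval -0.35 to 0.17, adjusted p = 0.956), and its second probe set had -0.07 (95% interval -0.33 to 0.18). Cryab had 14.23 ± 0.12 in Floxed_Mstn and 14.21 ± 0.16 in WT_Mstn muscle on its brightest probe set (SD, n = 5 each), a difference of 0.02 (95% interval -0.19 to 0.23). A second Cryab probe set had -0.13 (95% interval -0.34 to 0.07), so the 2 did not share a sign.

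Hspd1 encodes Hsp60, the folding chamber of the mitochondrial matrix, whose lid is the product of Hspe1. Hspd1 lies on chromosome 1 with 16 protein-coding genes between it and Mstn in the GRCm38.p6 gene order. Its values were 11.41, 11.56, 11.43, 11.37 and 11.18 in Floxed_Mstn mice 1 to 5, against 11.34, 11.42, 11.43, 11.37 and 11.42 in WT_Mstn mice 1 to 5. The WT_Mstn mice fell close together, and Floxed_Mstn mice lay on both sides of it. The difference was -0.00723 ± 0.077 (SE, 95% interval -0.18 to 0.17, or 0.883-fold to 1.12-fold, adjusted p = 0.995). Hspe1 had 0.06 (adjusted p = 0.935) and, on its second probe set, 0.13 (adjusted p = 0.782).

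**Figure D2:**
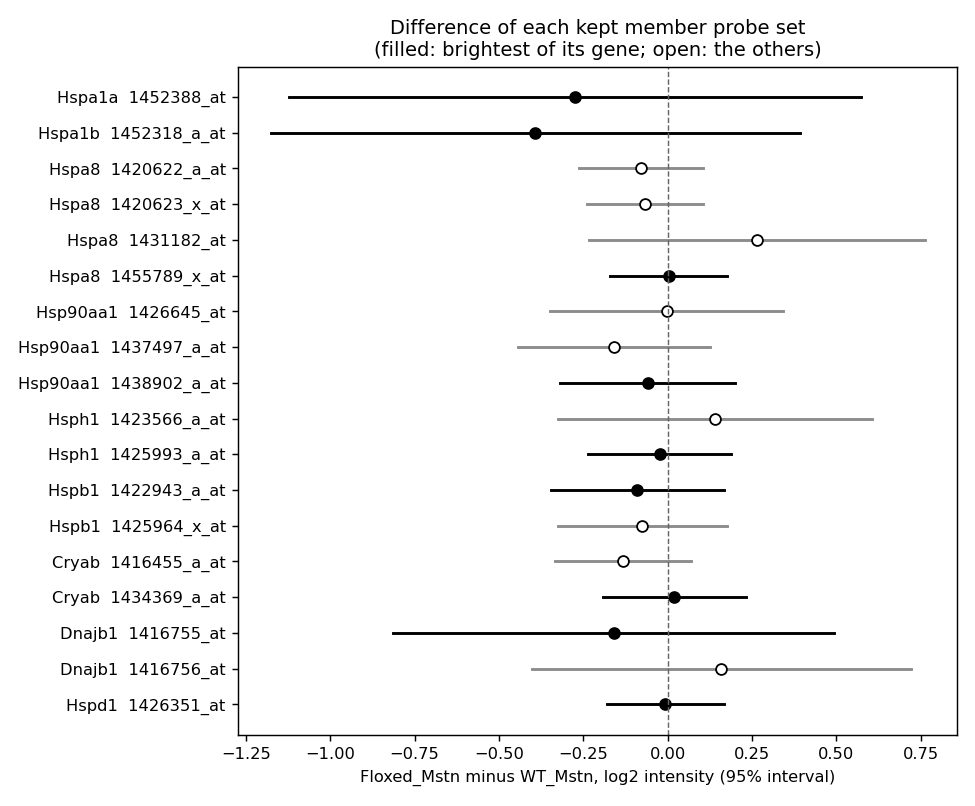
Difference in log2 intensity, Floxed_Mstn minus WT_Mstn, for each of the 18 tested member probe sets, with 95% intervals from limma (filled points, brightest probe set of the gene; open points, the others). Every interval includes 0; those of Hspa1a, Hspa1b and Dnajb1 are wide and those of Hspd1 and the bright Hspa8 probe sets are narrow.

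Precision differed by gene. The pooled SD within groups lay at the 92.6 percentile of all tested probe sets for Hspa1a, 90.9 for Hspa1b and 85.4 for Dnajb1. It lay at 35.9 for Hsp90aa1, 34.7 for Hspb1, 23.7 for Cryab, 23.4 for Hsph1, 12.5 for Hspa8 and 12.3 for Hspd1. These percentiles belong to the brightest probe set of each gene. Dimmer probe sets lay at 73.9 for Hspa8, 70.3 for Hsph1, and 53.2 and 41.2 for Hsp90aa1. The other bright Hspa8 probe sets lay at 15.5 and 12.1. Second probe sets lay at 79.7 for Dnajb1, 33.7 for Hspb1 and 21.0 for Cryab. The Hspa1a probe set is dim (mean log2 intensity 5.15), while those of Hspa1b (9.96) and Dnajb1 (9.13) lie well above the filter.

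**Figure D3:**
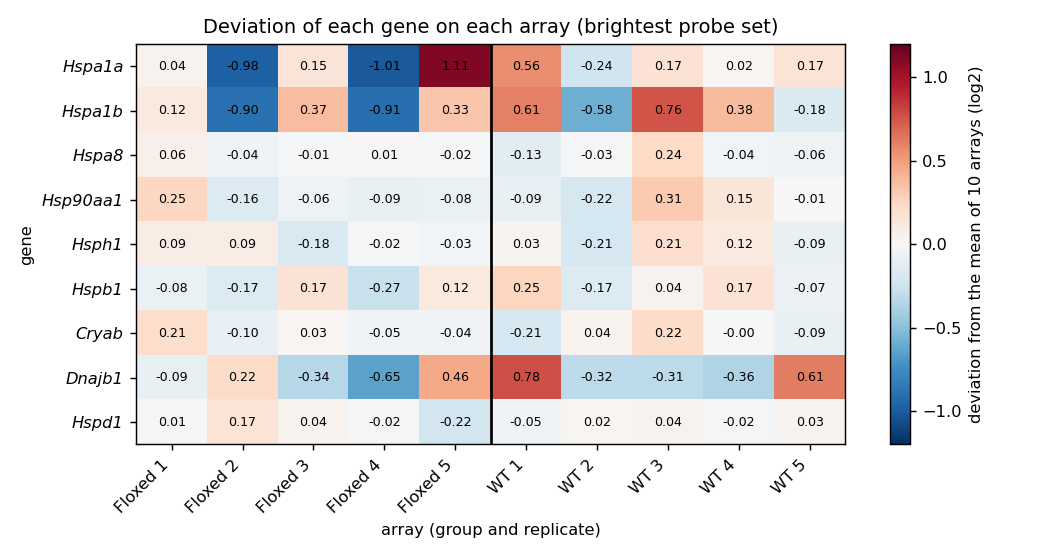
Deviation of each gene (rows, brightest probe set) from its own mean over 10 arrays, in log2 units, on each array (columns, Floxed_Mstn left of the line and WT_Mstn right). Hspa1a and Hspa1b are low together on Floxed 2 and Floxed 4, and Dnajb1 is high on Floxed 5, WT 1 and WT 5.

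The members did not vary as one block. Across the 10 mice, Hspa1a correlated with Hspa1b (Pearson's r = 0.80, Spearman's rho = 0.72, permutation p = 0.00372 and 0.0226) and with Hspb1 (r = 0.76, rho = 0.72, permutation p = 0.00738 and 0.0228). Adjusted over the 8 relations with Hspa1a that were computed, these gave 0.0295 for both values of r and 0.0911 for both values of rho, so only Pearson's r passed. Since probes to Hspa1a or Hspa1b may bind transcripts of both, their correlation cannot be taken as that of 2 separate genes. Without Floxed_Mstn 2 and Floxed_Mstn 4, r was lower, at 0.46 with Hspa1b and 0.53 with Hspb1. These mice had the lowest Hspa1a, so leaving them out also narrowed its range. Within WT_Mstn mice alone r was 0.70 with Hspa1b and 0.76 with Hspb1, and within Floxed_Mstn mice 0.90 and 0.84. With group means subtracted r was 0.79 and 0.75, and with the hybridisation controls regressed out it was 0.89 and 0.78. Hspd1 ran the other way (r = -0.72, rho = -0.28, permutation p = 0.0245 and 0.426, adjusted 0.0653 and 0.682), without passing. It did pass with the hybridisation controls regressed out (r = -0.76, adjusted permutation p = 0.0314). With group means subtracted its r was -0.75 (adjusted permutation p = 0.0598). Without Floxed_Mstn 2 and 4 its r was -0.89 (adjusted permutation p = 0.137). Floxed_Mstn 5, with the highest Hspa1a (6.27) and the lowest Hspd1 (11.18), was still among the mice used there. Dnajb1 had r = 0.52 (rho = 0.65, permutation p = 0.127 and 0.0472, adjusted 0.253 and 0.126). The other 4 members (Hspa8, Hsp90aa1, Hsph1 and Cryab) had r between -0.05 and 0.22. Of all 36 pairs of members, 9 had r above 0.5 and 11 had r below 0. Among the pairs without Hspa1a, Hspa1b with Hspb1 (0.87) and Hspa8 with Cryab (0.85) had the highest r, given as descriptions. Each member was also set against the hybridisation controls, and none of these 9 relations passed after adjustment. By Pearson's r the largest were Cryab (r = 0.67, rho = 0.58, permutation p = 0.0330 and 0.0883, adjusted 0.266 and 0.298) and Hsp90aa1 (r = 0.60, rho = 0.71, permutation p = 0.0682 and 0.0263, adjusted 0.266 and 0.236). Hspa8 had r = 0.54 (rho = 0.53, permutation p = 0.105 and 0.124, adjusted 0.266 and 0.298). Dnajb1 had r = -0.50 (rho = -0.45, permutation p = 0.142 and 0.189, adjusted 0.266 and 0.340) and Hspd1 r = 0.49 (rho = 0.52, permutation p = 0.148 and 0.132, adjusted 0.266 and 0.298). Without Floxed_Mstn 1 and Floxed_Mstn 3, r was 0.67 for Cryab, 0.77 for Hsp90aa1, 0.71 for Hspa8, -0.49 for Dnajb1 and 0.57 for Hspd1. Over all 10 arrays the other 4 members had r between -0.14 and 0.30. With Floxed_Mstn 1 and Floxed_Mstn 3 left out, r was 0.55 for Hsph1, -0.31 for Hspa1a, 0.20 for Hspa1b and -0.10 for Hspb1.

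**Figure D4:**
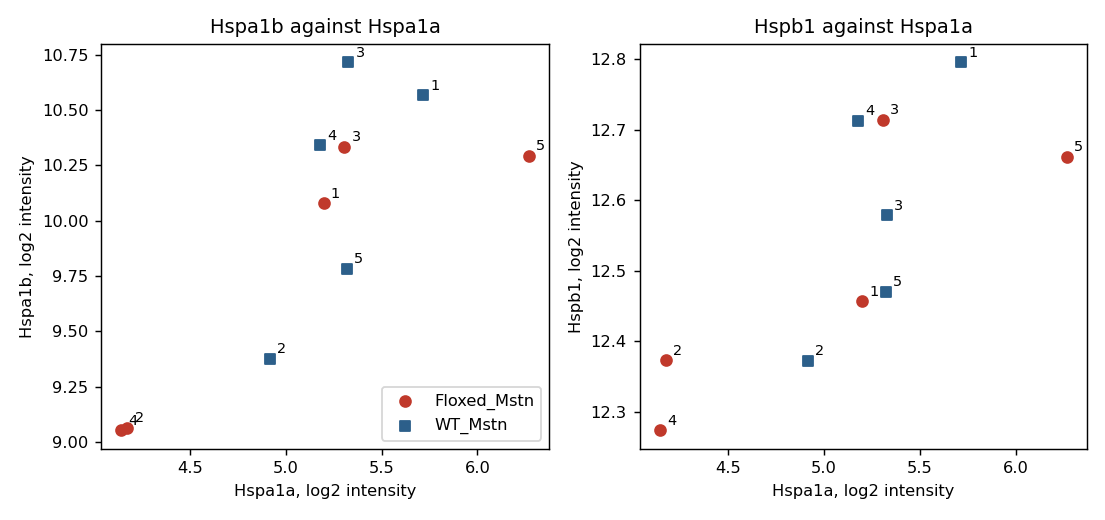
Log2 intensity of Hspa1b (left) and Hspb1 (right) against Hspa1a on 10 arrays, with circles for Floxed_Mstn and squares for WT_Mstn and the replicate number beside each point. Floxed_Mstn 2 and 4 lie at the lower left of both panels, and the 8 other arrays form a looser cloud.

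Genes whose pattern over the 10 arrays was most like the mean of 6 inducible members (Hspa1a, Hspa1b, Hsph1, Hspb1, Dnajb1 and Hsp90aa1, each put on a common scale) were ranked among 10695 other genes. The 8 highest by Pearson's r were Serpinb8 (0.89), Eps8 (0.87), Tcim (0.87), Lrrtm2 (0.86), Sema3d (0.85), Gabarapl1 (0.84), Twsg1 (0.81) and Mcl1 (0.81). None of these 8 differed between the groups (lowest adjusted p = 0.721, Twsg1). Serpinb8 (mean log2 intensity 4.35) and Sema3d (5.11) were dim. The mean pattern itself had r of 0.11 with the hybridisation controls, and 0.458% of genes reached r above 0.7. Neither that share nor the ranking was tested against chance, and both are given as descriptions.

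Beyond the named members, 121 of 135 further genes from 10 overlapping lists of chaperones, cofactors, proteases and regulators were measured. In limma 0 of them passed in either direction, 6 had an unadjusted p under 0.05 (4.96%, against 7.69% of all probe sets), and their median difference was -0.01. In 4 of them (3.31%, against 2.06%) the groups did not overlap on the brightest probe set. Every Floxed_Mstn value lay above every WT_Mstn value for Hspb8 and Dnajc25 (1.17% of all probe sets) and below for Htra2 and Cct2 (0.893%). Differences ran from -0.47 for Hspa12b, an Hsp70 of endothelium (adjusted p = 0.556), to 0.40 for Hspbap1 (adjusted p = 0.957).

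**Figure D5:**
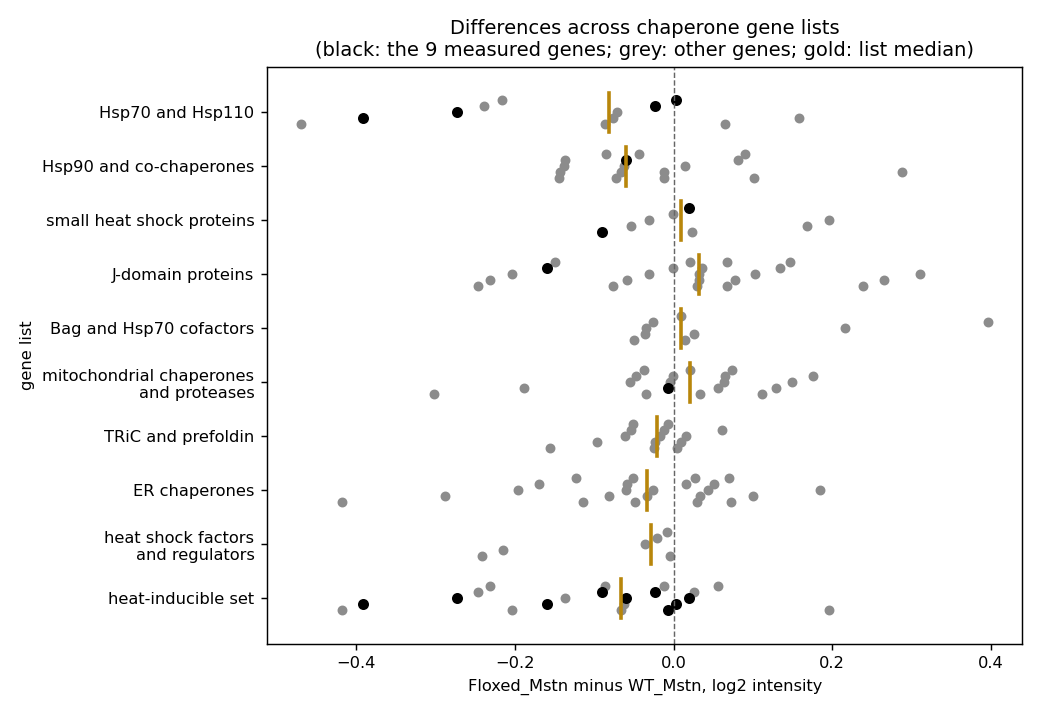
Difference in log2 intensity, Floxed_Mstn minus WT_Mstn, of each gene (points, brightest probe set) in 10 chaperone lists, with the 9 measured members in black, other genes in grey and the list median as a gold bar. List medians lie between -0.08 and 0.03, and no gene passed the test.

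Hspb8, a small heat shock protein that works with Bag3 in clearing damaged proteins at the Z-disc, had the least spread of these 4. Its brightest probe set gave 13.82, 13.84, 13.79, 13.84 and 13.81 in Floxed_Mstn mice 1 to 5, against 13.63, 13.62, 13.61, 13.62 and 13.63 in WT_Mstn mice 1 to 5. All knockouts lay above all controls, by a gap wider than the spread within either group. In limma the SE also draws on the variance of all other probe sets. The difference was 0.20 ± 0.05 (SE, 1.15-fold, adjusted p = 0.346), and it passed with no filter on dim probe sets (adjusted p = 0.00161) and with a variance trend and robust fit (adjusted p = 0.0124), but not in the other settings, where the adjusted p ran from 0.115 to 0.655. Its other probe sets had 0.50 (adjusted p = 0.520) and 0.09 (adjusted p = 0.868). In the small heat shock list, 4 of 8 measured members had higher and 4 lower values, with a median of 0.01, and beyond Hspb1 and Cryab the next lowest p were those of Hspb11 (0.17, adjusted p = 0.958) and Hspb2 (-0.05, adjusted p = 0.973).

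The Hsp70 and Hsp110 list had 3 higher and 9 lower values over 12 genes (median -0.08), among them Hspa1l, a testis-enriched Hsp70 (-0.24, adjusted p = 0.774), and Hspa13 (0.16, adjusted p = 0.806). Among 23 J-domain genes 14 were higher and 9 lower (median 0.03). Dnajc25 had 9.69 ± 0.06 in Floxed_Mstn and 9.42 ± 0.10 in WT_Mstn muscle (SD, n = 5 each), a difference of 0.27 (adjusted p = 0.348). Dnaja4 (-0.25, adjusted p = 0.605) and Dnajb4 (-0.23, adjusted p = 0.625), both heat-inducible, had lower values. The heat-inducible list, which includes the 9 measured members, had 5 higher and 16 lower values of 21 (median -0.07). In limma 0 of these passed, and 3 of the 21 had an unadjusted p under 0.05 (Dnaja4 and Dnajb4 lower, Hspb8 higher). That is a larger share than the 7.69% of all probe sets, and the excess was not tested. Hsp90 and its co-chaperones had 5 higher and 12 lower values of 17 (median -0.06). Stub1, the ubiquitin ligase that marks Hsp70 and Hsp90 clients (-0.14, adjusted p = 0.736), Ahsa1, which speeds the ATPase of Hsp90 (-0.14, adjusted p = 0.763), and Cdc37l1 (0.10, adjusted p = 0.810) had the lowest p. The other Cdc37l1 probe sets were mixed in sign (0.08, -0.13, 0.29 and -0.06). Bag proteins and other Hsp70 cofactors had a median of 0.01 over 9 genes, with Bag4 at 0.22 and Bag1 at -0.05 (adjusted p = 0.869 and 0.957). A dimmer Bag4 probe set had the opposite sign (-0.20).

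Mitochondrial chaperones and proteases had 10 higher and 9 lower values of 19 (median 0.02). Htra2, a protease of the space between the mitochondrial membranes, had 10.84, 10.86, 10.57, 10.58 and 10.66 in Floxed_Mstn mice 1 to 5, against 11.03, 10.96, 11.05, 11.04 and 10.93 in WT_Mstn mice 1 to 5. All knockouts lay below all controls, with a difference of -0.30 ± 0.08 (SE, adjusted p = 0.336), and its second probe set had -0.26 (adjusted p = 0.606). Clpb (0.18, adjusted p = 0.743) and the protease subunit Afg3l1 (0.15, adjusted p = 0.905) had the next lowest p. The cytosolic chaperonin TRiC and prefoldin, which fold actin and tubulin, had a median of -0.02 over 14 genes, with Cct2 at -0.10, Pfdn1 at -0.16 and Cct4 at 0.06 (adjusted p = 0.767, 0.807 and 0.927). On the other Cct2 probe sets, also bright, the differences were -0.03 and -0.02 and the groups overlapped. The list of heat shock factors and their regulators had lower values for all 6 genes measured (Hsf2, Hsf4, Hsbp1, Ep300, Crebbp and Sirt1). Their median was -0.03, with adjusted p of 0.856 for Sirt1, 0.899 for Hsf2 and 0.985 for Ep300. Hsf1 itself was listed but not measured. The Hsf2 difference (-0.21) came from WT_Mstn 2 at 5.51, while the Floxed_Mstn mean and the lowest WT_Mstn value were both 4.47.

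The list of endoplasmic reticulum chaperones and stress response genes (such as Atf4, Ddit3 and Xbp1) had 10 higher and 13 lower values of 23 (median -0.03). Serpinh1 (Hsp47), which folds procollagen, had 8.86 ± 0.41 in Floxed_Mstn and 9.28 ± 0.17 in WT_Mstn muscle (SD, n = 5 each), a difference of -0.42 ± 0.19 (SE, adjusted p = 0.652), and -0.49 (adjusted p = 0.475) on its other probe set. Pdia3 (-0.29) and Pdia6 (-0.20), which form disulfide bonds, did not pass either (adjusted p = 0.719 and 0.830). Fibroblast markers also had lower values, all 9 of them (median -0.42, Col1a2 past the threshold with an adjusted p of 0.0494), and their mean per array ran from 10.08 to 10.67 in Floxed_Mstn and from 10.71 to 11.05 in WT_Mstn muscle. Endothelial markers, listed beside Hspa12b, were lower for 8 of 10 (median -0.21), with means per array of 8.09 to 8.30 in Floxed_Mstn and 8.15 to 8.56 in WT_Mstn muscle. Slow fibre markers had lower values for 8 of 9 (median -0.28), with means per array of 12.01 to 13.68 in Floxed_Mstn and 12.79 to 13.81 in WT_Mstn muscle. Macrophage markers had lower values for 10 of 10 (median -0.40), with means per array of 7.32 to 8.60 in Floxed_Mstn and 8.09 to 8.88 in WT_Mstn muscle. Smooth muscle markers had lower values for 5 of 6 (median -0.39), with means per array of 8.34 to 8.997 in Floxed_Mstn and 8.49 to 9.02 in WT_Mstn muscle. Adipocyte markers had lower values for 3 of 5 (median -0.09), with means per array of 7.56 to 9.14 in Floxed_Mstn and 8.42 to 8.89 in WT_Mstn muscle. In limma, 6 of 9 fibroblast, 4 of 6 smooth muscle and 2 of 10 endothelial markers had an unadjusted p under 0.05. The slow fibre, macrophage and adipocyte lists each had 0, and the share over all probe sets was 7.69%. The part of these cell types in the chaperone values was not tested.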

How the data were processed

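Per the submitters' processing notes, the deposited values are GCRMA intensities (background corrected from probe sequence, normalized between arrays and summarised per probe set, on a linear scale); version, settings and any pooling were not given in the sources used here. Biotin-labelled cDNA was made with NuGEN kits, per the labels' protocols. Deposited intensities were put on the log2 scale and not normalized again. Names came from the annotation of the platform: 34958 probe sets carried 1 symbol, 932 carried several and 9211 had no entry. After leaving out 64 array control probe sets and those with a mean log2 intensity under 4, 21154 probe sets (10704 genes) entered a two-sided moderated test (limma 3.58.1, R 4.3.3) with Benjamini-Hochberg adjustment over all of them. The brightest probe set stood for a gene.

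Correlations used 100000 permutations. The fit was tested on simulated data. Arrays have no read depth, and the number of mice limits precision. Nothing states that mice came from separate litters or cages.

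Members and lists were chosen with earlier results of these data known. All members were named, with the up to 3 other genes of lowest p in each chaperone list and Hspe1. The non-overlapping genes are among these. Alternatives covered filter, scaling, variance model, array weights, replicate block, floor, hybridisation controls, probe set choice and each array left out.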

Additional observations from a re-analysis of the deposited data

Results flagged for a closer look

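In 7 of 92 groups of 5 mice tested (member and named chaperone probe sets), 1 mouse lay far from the other 4, where chance marks about 1 in 20, or 4.6. WT_Mstn 3 was high for Hspa8 on 2 bright probe sets, at 15.02 against 14.66 to 14.70 and at 14.99 against 14.63 to 14.73 in the other WT_Mstn mice. Floxed_Mstn 1 was high for Hsp90aa1, at 10.76 against 10.35 to 10.45. On the dimmer Hsph1 probe set, Floxed_Mstn 3 had 8.15 against 8.95 to 9.18, and WT_Mstn 2 had 8.24 against 8.78 to 8.95. Bag1 was 13.13 in Floxed_Mstn 2 against 12.96 to 13.00, and Hsf2 was 5.51 in WT_Mstn 2, where the lowest WT_Mstn value was 4.47.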

How the results depend on the processing

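The count of 0 member probe sets past the threshold stayed at 0 in limma under all 20 alternative fits, with 0 at an unadjusted p under 0.05 in each. Of all probe sets, 1249 of 21154 had such an unadjusted p without Floxed_Mstn 2, the fewest. The most, 2730 of 21154, came with the hybridisation control covariate, and with no filter it was 2130 of 45037. The count over all probe sets, 21, became 67 with array weights, 99 with the hybridisation control covariate, 11 with no filter, 36 after quantile normalization, 58 under the robust fit with a variance trend, and 5 without the 3 arrays of highest hybridisation controls. It was 1 to 17 with each array left out in turn: 17 without Floxed_Mstn 5, 14 without WT_Mstn 1, and 1 to 3 without any other array. With the replicate block it was 1; deviations of same-numbered mice correlated at -0.51, 0.13, 0.62, -0.20 and 0.19, so the numbers are not shown to pair the mice, and the block changed no member's call. The 2 correlations with Hspa1a past the threshold became 0 without Floxed_Mstn 2 and 4. Of 185 member values under alternatives, 162 kept their sign and 0 passed. Signs of differences near 0 turned: Hspa8 with the covariate (-0.00624), Hsph1 with array weights (0.0391), without the 3 arrays (0.0508) and as the mean of probe sets (0.0587), Cryab as the mean of probe sets (-0.0564), Hspd1 with array weights (0.0184) and median centring (0.00363), Ep300 with array weights (0.0300) and without the 3 arrays (0.0916), Hsp90aa1 (dimmer probe set) with array weights (0.0175) and median centring (0.00771), and 2 other Hspa8 probe sets without the 3 arrays (0.00946 and 0.00449). With each array left out in turn, differences ran from -0.0286 to 0.0632 for Hspa8, -0.129 to 0.0113 for Hsp90aa1, -0.0784 to 0.0254 for Hsph1, -0.0312 to 0.0763 for Cryab, -0.294 to 0.0142 for Dnajb1, -0.0499 to 0.0461 for Hspd1, -0.0817 to 0.0349 for Ep300 and -0.119 to 0.0672 for the dimmer Hsp90aa1 probe set. The causes were not tested. The Hspa1a probe set is too dim for the filter of 6 and gave no value there. Signal over background limits Hspa1a and the dim Hspa1b and Dnajb1 probe sets.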

Other observations

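Immediate early genes, which rise within minutes of stimulation or handling, were set beside Hspa1a across the 10 mice. Of 8 measured, 0 passed in limma between Floxed_Mstn and WT_Mstn muscle (0 at an unadjusted p under 0.05), with a median difference of -0.06 (log2). In the 8 correlations with Hspa1a, the highest by Pearson's r was Atf3, a stress-induced factor (r = 0.56, Spearman's rho = 0.43, 0.0884 and 0.218 by permutation, adjusted to 0.594 and 0.581; r = 0.39 without 2 mice). The lowest by r was Egr1 (r = -0.42, rho = -0.37, 0.223 and 0.295 by permutation, adjusted to 0.594 and 0.590; r = -0.72 without 2 mice). By rho the highest was Egr2 (0.45) and the lowest Fos (-0.53). None passed after adjustment. Floxed_Mstn 5, highest for Hspa1a, had 10.38 for Egr1, and Floxed_Mstn 1 had 13.03.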
